A study of Arabidopsis thaliana with 12 samples.

Results

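Seedlings of the autophagy line atg5 were set against wild type after germination in water stress medium. The comparison rests on 3 RNA-seq libraries labelled atg5 and 2 labelled wild type, all grown in water stress medium (WSM), out of 10 libraries with counts. It covers the 19714 genes that are listed in the deposited tables of both genotypes, of 20780 genes listed in either. The question it addresses is how gene expression differs between seedlings labelled atg5 and wild type when water is short.

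The atg5 group was the insertion line SALK_020601C of Arabidopsis thaliana, in the Col-0 background, germinated and grown for 5 days in flasks of liquid WSM. The wild-type group was Col-0 kept for the same 5 days in the same medium. WSM held half-strength Murashige medium with 0.5% sucrose, 2.5% glycerol and 0.5% alginic acid. Libraries in control medium (NM), which has the sucrose but neither glycerol nor alginic acid, entered the fit as 2 atg5 and 3 wild-type libraries and are named only where they add to the comparison. RNA came from whole seedlings, so fewer cells of a type and less RNA per cell cannot be told apart in any value below. The atg5 group is 1 insertion line, and the labels as read here do not say whether each library had a flask of its own. A p-value here reflects only how much these libraries vary, and part of that variation may be technical.

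Autophagy is the pathway by which a cell encloses part of its own contents in a membrane and delivers it to the vacuole for breakdown. ATG5 is joined to ATG12, and the pair helps to attach the ubiquitin-like protein ATG8 to the lipid of the growing membrane. In a germinating seedling the reserves laid down in the seed (storage proteins of the cruciferin and albumin families, and oil held in droplets coated by oleosins) are consumed. Transcripts of the storage and late embryogenesis abundant (LEA) proteins belong to seed maturation and normally decline after germination. LEA proteins and dehydrins protect dry cells, and abscisic acid promotes their expression through factors such as ABI3 and ABI5.

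The lowest 3 log2 differences of all genes tested were those of CRU3, CRA1 and PAP85, which encode storage globulins or a protein of the same fold. The 250 bases before the annotated start are shown for these genes, the albumin gene SESA2 and the oleosin gene OLEO1, as examples of storage and oil body genes that were chosen with their values and motif matches known. They come from the RefSeq TAIR10.1 assembly and are written 5′ to 3′ on the strand of the gene. Capitals mark the RY motif CATGCA and the core ACGTG of the abscisic acid response element, each searched on both strands, with overlapping matches counted separately.
OLEO1 (chr4:12900180-12900429, plus strand): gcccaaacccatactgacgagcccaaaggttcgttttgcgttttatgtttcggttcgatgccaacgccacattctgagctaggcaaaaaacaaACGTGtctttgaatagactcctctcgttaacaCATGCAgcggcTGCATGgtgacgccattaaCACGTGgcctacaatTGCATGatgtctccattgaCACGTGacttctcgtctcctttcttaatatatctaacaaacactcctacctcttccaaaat
CRA1 (chr5:17758337-17758586, minus strand): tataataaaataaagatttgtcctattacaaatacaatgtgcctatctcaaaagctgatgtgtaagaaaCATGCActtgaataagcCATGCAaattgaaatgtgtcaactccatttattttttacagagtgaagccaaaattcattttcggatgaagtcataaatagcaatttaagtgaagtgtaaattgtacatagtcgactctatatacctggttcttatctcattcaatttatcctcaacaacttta
CRU3 (chr4:14087306-14087555, plus strand): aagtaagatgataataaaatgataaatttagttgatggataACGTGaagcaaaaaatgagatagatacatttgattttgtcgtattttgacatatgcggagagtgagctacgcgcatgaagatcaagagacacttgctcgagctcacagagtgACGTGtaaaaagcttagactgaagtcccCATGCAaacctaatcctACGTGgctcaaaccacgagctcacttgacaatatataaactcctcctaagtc
SESA2 (chr4:13609091-13609340, plus strand): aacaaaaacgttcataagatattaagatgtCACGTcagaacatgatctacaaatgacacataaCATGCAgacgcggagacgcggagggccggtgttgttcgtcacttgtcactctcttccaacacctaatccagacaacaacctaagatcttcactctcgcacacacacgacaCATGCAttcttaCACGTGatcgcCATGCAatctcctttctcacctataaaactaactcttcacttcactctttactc
PAP85 (chr3:8013942-8014191, minus strand): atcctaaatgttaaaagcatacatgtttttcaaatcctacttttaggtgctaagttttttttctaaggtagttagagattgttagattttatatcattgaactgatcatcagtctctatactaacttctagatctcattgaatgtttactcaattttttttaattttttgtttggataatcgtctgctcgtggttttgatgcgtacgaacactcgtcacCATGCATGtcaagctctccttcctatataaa

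The 5 windows shown all hold the RY motif, and 3 of them (OLEO1, CRU3 and SESA2) also hold the ACGTG core. Being chosen with the matches known, they are no sample of the genes with lower values, of which AT5G35660 and AT1G54870 had 0 RY matches in their windows. Of 18682 tested nuclear protein-coding genes, 7.50% had the RY motif and 23.9% the ACGTG core in a window of that length. Among 9 members of the seed storage and LEA list with a window analysed and all atg5 libraries below both wild-type libraries, 6 held the RY motif and 7 the ACGTG core. A match of letters is a description of the window and was not tied to any measured binding.

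The WSM libraries held 8928632 to 23936030 counts, of which 19.1% to 65.6% fell in ribosomal RNA regions. The shallowest, atg5 library 1, had 3069193 counts outside those regions, against 10196649 to 16604136 in the other WSM libraries. It also stood apart on the first principal component of the WSM libraries, which carried 56.6% of the variance. Log2 levels correlated across genes at 0.882 to 0.949 between the atg5 libraries and at 0.972 between the wild-type libraries. No replicate pair agreed within sampling noise, so each library was counted as 1 sample.

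ATG5, the targeted gene (annotated as APG5, AT5G17290), had 31.7, 26.3 and 31.0 CPM (counts scaled to a common library size) in the libraries labelled atg5, against 20.2 and 23.8 CPM in wild type. Its gene-level count was therefore not lower in the libraries labelled atg5, and the log2 difference of 0.43 ± 0.21 (SE) did not pass the test (edgeR adjusted p = 0.435). A count over the whole gene does not show an insertion inside it, and 28% of the exonic bases of ATG5 overlap another gene. PREP1, a presequence protease gene for which the atg5 NM libraries had 0.067 and 0 CPM, had 68.8, 0.132 and 94.7 CPM in the 3 libraries labelled atg5, against 106 and 99.0 CPM in wild type. Only library 2 of the atg5 group thus had almost no PREP1 transcript in WSM, and its neighbours on chromosome 3 split the same libraries. PARC6, a plastid division gene, had 2.96, 0 and 6.87 CPM in the atg5 libraries, against 13.9 and 9.47 CPM. ATG2, an autophagy gene that follows PARC6 on the chromosome, had 8.67, 26.6 and 6.32 CPM in the atg5 libraries, against 10.03 and 6.50 CPM. The 3 libraries labelled atg5 are therefore not alike at this locus, and the results below name the library where 1 of them sets a value.

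A gene was called when edgeR's quasi-likelihood test over all 19714 genes gave a Benjamini-Hochberg adjusted p under 0.05. By that rule 1 gene was higher in the libraries labelled atg5 (0.00507% of the genes tested) and 6 were lower (0.0304%). At an unadjusted p under 0.05 the counts were 1611 higher (8.17%) and 756 lower (3.83%). The groups did not overlap, with every atg5 library above both wild-type libraries, for 13.6% of genes, and with every atg5 library below for 13.8%. Those shares are the background against which the counts for gene groups stand.

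The 6 genes that fell were OLEO2, AT3G01570, PAP85, AT3G54940, AT5G35660 and AT1G54870. OLEO2 (AT5G40420) encodes an oleosin, a coat protein of seed oil bodies, and had 0.394, 0.231 and 0.432 CPM in the atg5 libraries, against 8.13 and 3.79 CPM in wild type. It fell by 4.12 ± 0.44 (SE) on the log2 scale (edgeR adjusted p = 0.0106). The atg5 values rest on 2, 7 and 11 counts, against 158 and 102 in wild type, and the highest atg5 library stayed far below the lowest wild-type library. AT3G01570, a further oleosin family gene, had 1.18, 0.626 and 1.26 CPM in the atg5 libraries, against 8.69 and 5.98 CPM. Its log2 difference was -2.90 ± 0.34 (edgeR adjusted p = 0.0166).

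PAP85 (AT3G22640) encodes a cupin family protein, the fold that seed storage globulins share. It had 3.55, 0.758 and 0.943 CPM in the atg5 libraries, against 59.8 and 32.6 CPM in wild type, and fell by 5.12 ± 0.67 on the log2 scale (edgeR adjusted p = 0.0291). AT3G54940, annotated as a papain family cysteine protease, had 3.15, 1.42 and 1.49 CPM in the atg5 libraries, against 20.2 and 11.9 CPM. For both genes atg5 library 1 was the highest of its group and still below both wild-type libraries. AT5G35660, annotated as a glycine-rich protein, had 4.14, 1.02 and 0.550 CPM in the atg5 libraries, against 54.0 and 25.8 CPM. AT1G54870, annotated as an NAD(P)-binding Rossmann-fold protein, had 1.18, 0.824 and 1.296 CPM, against 18.4 and 11.7 CPM. Its difference of -3.79 ± 0.35 on the log2 scale had the lowest adjusted p of all genes (edgeR, 0.00477). Within the 250 bases before their starts, of 5 genes called lower with a window analysed, 3 held the RY motif and 4 the ACGTG core.

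In NM the same 6 genes also passed the test with lower values in the atg5 libraries, where 11 genes (0.0558%) were called lower in all. PAP85 had 0.201 and 1.36 CPM in the atg5 NM libraries, against 37.95, 50.8 and 63.6 CPM in wild-type NM. For OLEO2 the values were 1.00 and 1.36 CPM in the atg5 NM libraries, against 9.82, 9.57 and 9.53 CPM. The test of the difference of the genotype effects between the media called none of the 6. Their log2 differences between WSM and NM were -1.09 to 0.99 (lowest edgeR adjusted p 0.392, for OLEO2). That test called 0 of all 19714 genes, so the lack of a call does not show that the effects were equal.

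The gene that rose, AT4G16260, encodes a glycosyl hydrolase of a family that includes cell wall and defence glucanases. It had 30.3, 46.7 and 34.1 CPM in the atg5 libraries, against 9.72 and 11.3 CPM in wild type, and rose by 1.82 ± 0.25 on the log2 scale (edgeR adjusted p = 0.0401). All 3 atg5 libraries were above both wild-type libraries. In NM the atg5 libraries had 30.8 and 28.7 CPM, against 16.8, 21.7 and 15.8 CPM, also apart, as 18.9% of all genes were in that direction. AT4G16260 was not called in NM, with a log2 difference of 0.72 ± 0.23 (edgeR adjusted p = 0.206). The difference between the media, WSM minus NM, was 1.11 ± 0.34 on the log2 scale and did not pass (edgeR adjusted p = 0.224).

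The number of calls varied with the libraries in the fit. Fitted with the WSM libraries alone, 0 genes were called higher and 0 lower by edgeR, with 1029 and 441 at an unadjusted p under 0.05. Without wild-type library 3 the counts were likewise 0 and 0 (735 and 367 unadjusted), while without atg5 library 3 they were 0 and 1, without wild-type library 4 they were 0 and 3, without atg5 library 1 they were 30 and 32, and without atg5 library 2 they were 166 and 31. DESeq2 on the same counts called 281 genes higher and 62 lower, the 7 edgeR calls among them.

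**Figure D1:**
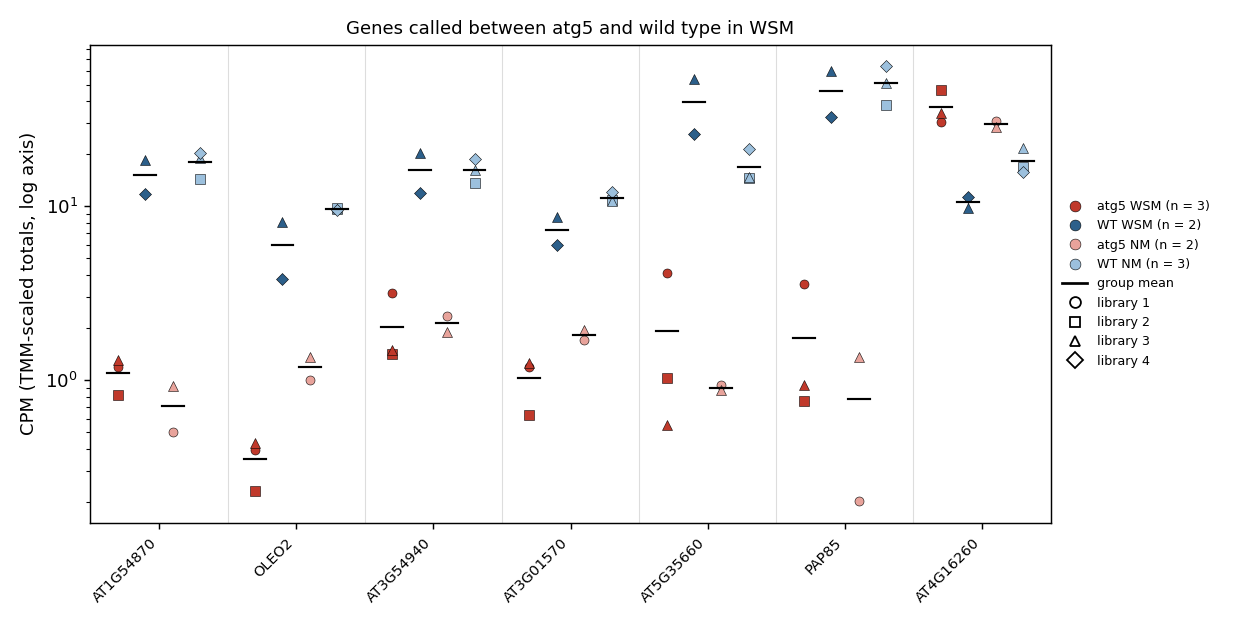
Level of the 7 called genes in every library, in CPM on a log axis, with atg5 left of wild type within each medium, 1 symbol per library and a bar at the group mean. The atg5 WSM libraries of the 6 genes that fell lie below 5 CPM and below both wild-type libraries, and those of AT4G16260 lie between 30.3 and 46.7 CPM, above both.

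The seed storage and LEA list, the reserve and desiccation proteins of the seed, had 17 members in both tables. Its median log2 difference was -2.33, against 0.03 over all genes tested. OLEO2 was its only called member (0 higher, 1 lower), 10 members had all atg5 libraries below both wild-type libraries, and 0 had them above. The largest log2 differences of the list were those of 2 storage globulins. CRA1 (AT5G44120), a cruciferin, had 83.0, 3.76 and 8.56 CPM in the atg5 libraries, against 1354 and 942 CPM in wild type. CRU3 (AT4G28520), a further cruciferin, had 36.7, 3.13 and 3.02 CPM in the atg5 libraries, against 559 and 498 CPM. Their log2 differences of -5.23 ± 1.11 and -5.33 ± 0.99 did not pass the test (edgeR adjusted p = 0.238 and 0.202), although the groups did not overlap. DESeq2 called both lower, among 7 members of the list, where it called 62 of all 19714 genes lower. For both genes atg5 library 1 held the most transcript of its group.

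The same library set the spread of other members. SESA2, a storage albumin, had 4.34, 0.198 and 0.786 CPM in the atg5 libraries, against 13.7 and 9.54 CPM in wild type. OLEO1, an oleosin, had 3.35, 0.527 and 0.393 CPM in the atg5 libraries, against 10.2 and 4.83 CPM. PER1, a seed peroxiredoxin, had 7.49, 1.48 and 1.06 CPM in the atg5 libraries, against 20.1 and 12.9 CPM. In each of the 3 genes atg5 library 1 lay closest to wild type and the groups stayed apart. Without that library 10 members were called lower by edgeR, where 32 of all 19714 genes were, and the median was -3.68. The albumin genes SESA1, SESA3 and SESA4, whose log2 differences were -0.78, 0.68 and 0.33, overlapped between the groups. Cruciferins and tandem albumin genes have close copies that could share reads, so the split of counts among them is uncertain.

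None of the LEA genes named next was called by edgeR, and their groups were not all apart. GEA6, a small hydrophilic LEA protein, had 7.49, 1.05 and 1.49 CPM in the atg5 libraries, against 14.8 and 10.8 CPM in wild type. LEA4-5 had 6.11, 10.02 and 9.47 CPM, against 22.3 and 19.0 CPM. In LEA4-5 it was library 1 that was lowest, unlike in the storage genes. LEA14, an atypical LEA protein also made in leaves, had 108, 80.6 and 67.2 CPM in the atg5 libraries, against 64.9 and 84.0 CPM, and its groups overlapped. Of the genes taken by lowest p and not called, 3 more are annotated as LEA proteins or a dehydrin. AT5G44310 had a log2 difference of -2.89 ± 0.43 (edgeR adjusted p = 0.0638), the dehydrin LEA (AT2G21490) one of -2.80 ± 0.43 (0.0873) and AT3G17520 one of -2.29 ± 0.49 (0.238).

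In NM the list looked alike in direction, with a median of -3.10, 2 members called lower, and 14 with all atg5 libraries below all wild-type libraries, where 19.0% of all genes were. RAB18, an abscisic acid responsive dehydrin held in the water deficit list, had 10.6, 2.27 and 1.41 CPM in the atg5 WSM libraries, against 36.3 and 23.3 CPM. Its log2 difference was -2.91 ± 0.65 (edgeR adjusted p = 0.238). The regulators of seed maturation gave overlapping groups. ABI3 had 5.71, 1.25 and 1.57 CPM in the atg5 libraries, against 5.86 and 3.67 CPM, and ABI5 had 8.87, 0.791 and 1.81 CPM, against 5.86 and 3.49 CPM. Both were highest in atg5 library 1 within their group, as CRA1 and CRU3 were.

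**Figure D2:**
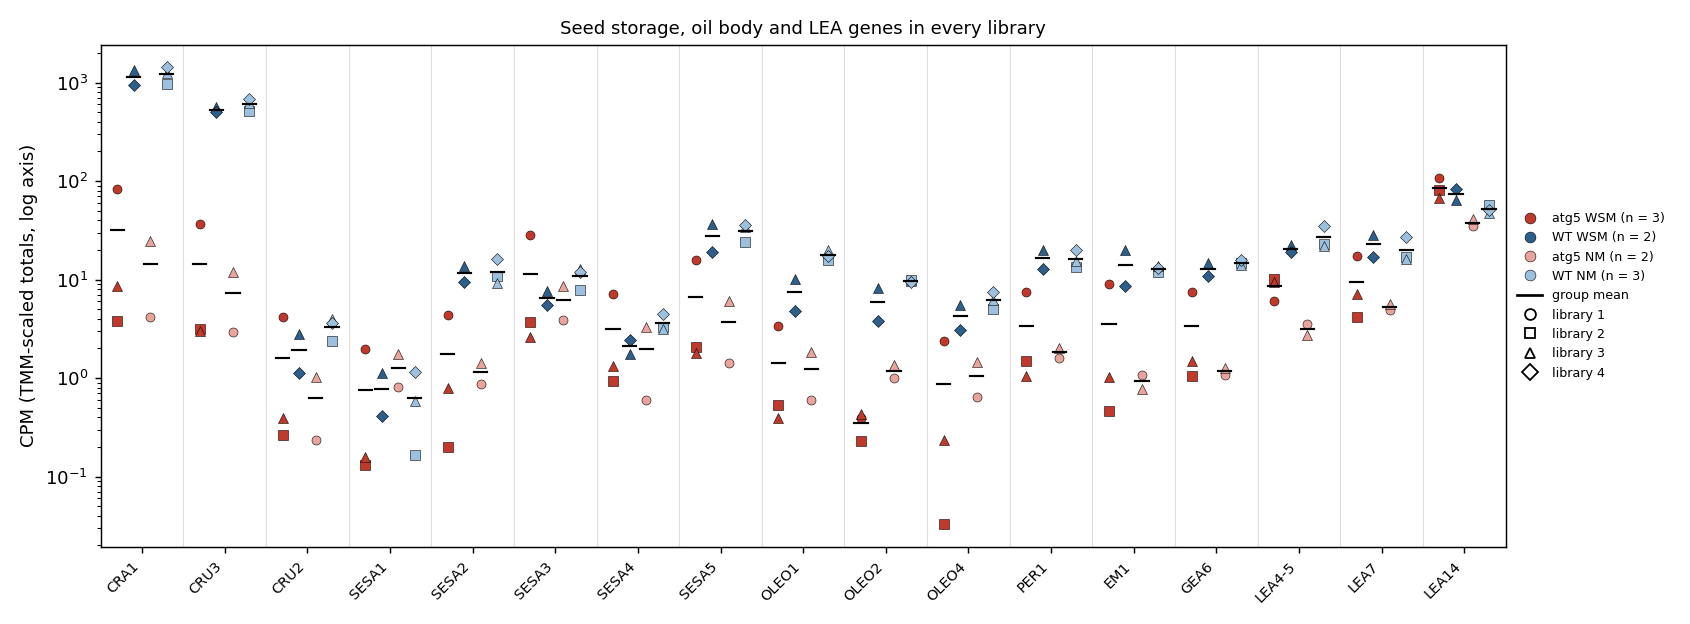
Level of the 17 measured seed storage, oil body and LEA genes in every library, in CPM on a log axis, with atg5 left of wild type within each medium and a bar at the group mean. CRA1 and CRU3 lie at 3.02 to 83.0 CPM in the atg5 WSM libraries and at 498 to 1354 CPM in wild type, with atg5 library 1 the highest of its group.

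Markers of the seed coat and endosperm, tissues that stay attached to a young seedling, were examined because storage transcripts also occur there. Of 11 list entries 8 were measured, and their summed level was 179, 112 and 126 CPM in the atg5 libraries, against 193 and 189 CPM in wild type. The members EXPA2, an endosperm expansin, and EPR1, an endosperm extensin-like gene, were among 4 with all atg5 libraries below both wild-type libraries. EXPA2 had 18.7, 1.85 and 3.14 CPM in the atg5 libraries, against 37.5 and 29.5 CPM. GASA6, a gibberellin-responsive gene of which 23% of the exonic bases overlap another gene, had 19.5, 35.0 and 50.3 CPM, against 10.8 and 13.3 CPM. No member was called by edgeR with all 10 libraries. DESeq2 called GASA6 higher (adjusted p = 0.00384), where it called 281 of all 19714 genes higher. Without atg5 library 1, edgeR called GASA6 higher and EXPA2 and EPR1 lower, where it called 30 and 32 of all genes. No marker was at 0 in all WSM libraries. The part of these tissues, or of slower or faster germination, in the seed gene differences was not tested.

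Genes of the heat shock response had higher values in the libraries labelled atg5. The list, made of chaperones and the factors that induce them, had 16 measured members, all with a log2 difference above 0 and a median of 2.1. In 13 of the 16 every atg5 library lay above both wild-type libraries, in 0 every one lay below, and 0 members were called by edgeR (14 at an unadjusted p under 0.05). By DESeq2, 9 members were called higher, where 281 of all 19714 genes were. The small heat shock protein gene HSP17.6II (AT5G12020) had 15.2, 11.96 and 97.7 CPM in the atg5 libraries, against 2.16 and 5.72 CPM in wild type. Its log2 difference was 3.40 ± 0.85 (edgeR adjusted p = 0.264). It lies beside its close relative HSP17.6A, so counts of the pair may be shared.

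BAG6, a co-chaperone, had 34.3, 24.5 and 227 CPM in the atg5 libraries, against 6.17 and 17.3 CPM. MBF1C, a transcriptional coactivator of the heat response with 26% of its exonic bases inside another gene, had 148, 86.3 and 272 CPM, against 26.9 and 51.3 CPM. HSP101, the disaggregase that rescues clumped proteins, had 34.3, 26.1 and 122 CPM, against 10.03 and 16.9 CPM. In all 3 genes atg5 library 3 was far above the others of its group, and atg5 library 2 was the lowest of its group. HSP90.1 had 97.9, 113 and 390 CPM in the atg5 libraries, against 35.9 and 64.5 CPM, and HSP70 (AT3G12580) had 135, 242 and 355 CPM, against 75.6 and 121 CPM. Without atg5 library 3 the list median was 1.01. With atg5 library 2 as the only atg5 library it was 0.81.

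Among the regulators, HSFA2, a heat shock factor induced by heat, had 3.94, 5.60 and 17.3 CPM in the atg5 libraries, against 2.37 and 3.04 CPM. HSFB2A, a repressor-type factor, had 31.5, 26.0 and 33.0 CPM, against 17.9 and 14.9 CPM, the most even of the list within the atg5 group. HSFA3 and the immunophilin ROF1 had log2 differences of 0.28 and 0.34 and overlapping groups. AT5G37670, an HSP20-like chaperone taken by its low p and not a list member, had 14.2, 10.6 and 46.7 CPM in the atg5 libraries, against 1.95 and 3.42 CPM (log2 3.15 ± 0.60, edgeR adjusted p = 0.209). Without atg5 library 3, the highest, its log2 difference was 2.18 ± 0.35 (edgeR adjusted p = 0.236), and it passed the test without atg5 library 1 or 2 (edgeR adjusted p = 0.0439 and 0.0225). In NM the list median was 0.47, and 8 members had all atg5 libraries above all wild-type libraries, where 18.9% of all genes did.

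**Figure D3:**
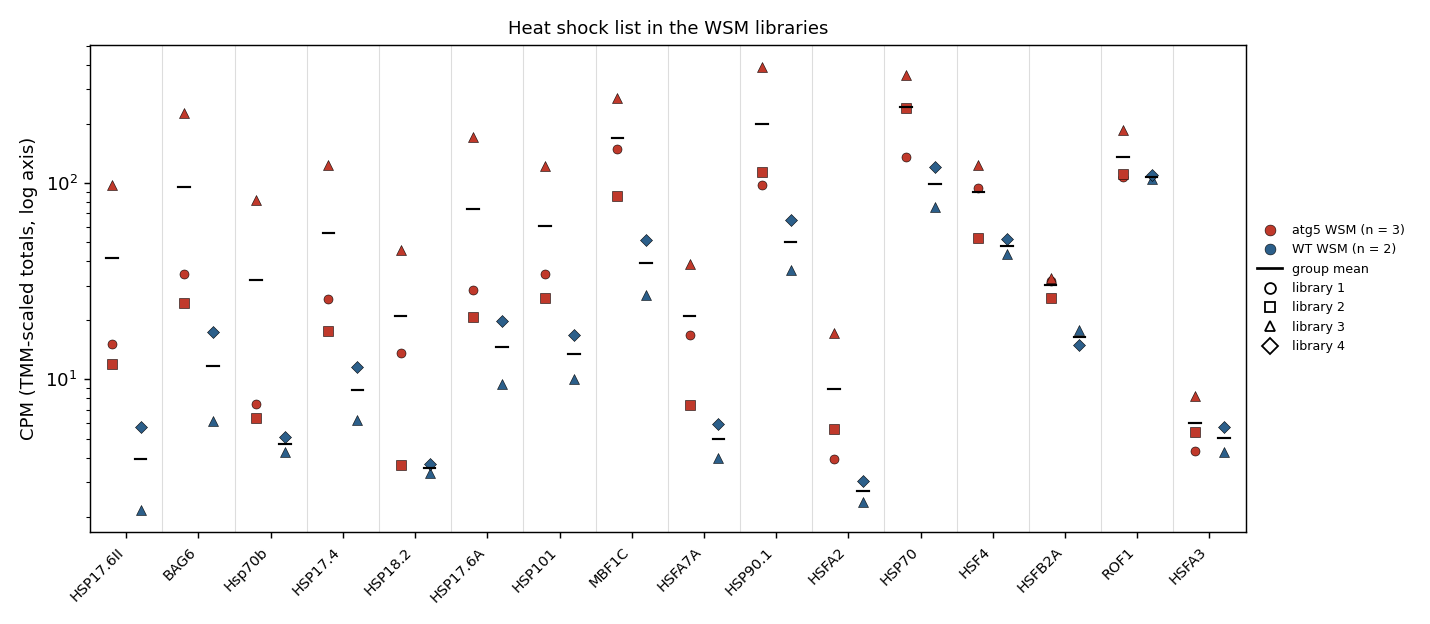
Level of the 16 heat shock list members in the WSM libraries, in CPM on a log axis, with atg5 left of wild type, 1 symbol per library and a bar at the group mean. HSP17.6II lies at 11.96 to 97.7 CPM in the atg5 libraries and at 2.16 and 5.72 CPM in wild type, and atg5 library 3 is the highest point of every gene.

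The list of hypoxia response genes, which plants switch on when oxygen is short, had 16 measured members and a median log2 difference of 1.67. All 16 differences were above 0, 5 members had all atg5 libraries above both wild-type libraries, 0 had them below, and 0 were called (10 at an unadjusted p under 0.05). ADH1, alcohol dehydrogenase of fermentation, had 958, 38.9 and 606 CPM in the atg5 libraries, against 26.4 and 95.2 CPM in wild type. HB1, a haemoglobin gene, had 583, 71.7 and 372 CPM in the atg5 libraries, against 53.0 and 81.2 CPM. Libraries 1 and 3 of the atg5 group were high in both genes, whereas library 2 lay between the wild-type libraries. ERF71, an ethylene response factor of the oxygen-sensing group, had 69.8, 19.8 and 124 CPM, against 4.22 and 10.5 CPM, and its groups did not overlap (log2 3.27 ± 0.81, edgeR adjusted p = 0.264).

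With atg5 library 2 as the only atg5 library the hypoxia median was -0.05. Of the WSM libraries labelled atg5, it is the one with almost no PREP1 transcript. Without library 2 the median was 2.12 and 3 members were called higher by edgeR, where 166 of all 19714 genes were. The sum over the list was 4198, 831 and 3389 CPM in the atg5 libraries, against 657 and 1004 CPM in wild type. In NM the list median was 0.87. There 6 members had all atg5 libraries above all wild-type libraries and 1 had them below, where 18.9% and 19.0% of all genes did. The NM sums were 457 and 1940 CPM in the atg5 libraries, both with almost no PREP1 transcript, against 497, 476 and 659 CPM in wild type. Whether flask conditions such as aeration differed between libraries was not tested.

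Cell division genes had lower values in the libraries labelled atg5. All 24 measured members of the list had a log2 difference below 0, with a median of -0.54 and a range of -0.93 to -0.15. In 18 every atg5 library lay below both wild-type libraries, in 0 above, and 0 members were called by edgeR or by DESeq2 (9 at an unadjusted edgeR p under 0.05). The summed level was 216, 228 and 223 CPM in the atg5 libraries, against 344 and 314 CPM in wild type, a narrow spread within each group. MCM5, a subunit of the helicase that opens DNA for replication, had 13.8, 16.6 and 18.5 CPM in the atg5 libraries, against 23.9 and 23.9 CPM. PCNA1, the sliding clamp of DNA polymerase, had 12.4, 12.9 and 12.02 CPM, against 17.59 and 17.0 CPM. The B-type mitotic cyclin CYC1BAT had 10.05, 9.82 and 9.23 CPM, against 16.0 and 19.9 CPM (log2 -0.89 ± 0.24, edgeR adjusted p = 0.268).

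SYP111, the syntaxin of the dividing cell plate, had 32.1, 19.1 and 27.6 CPM in the atg5 libraries, against 43.9 and 47.6 CPM, with 33% of its exonic bases inside another gene. The list median stayed between -0.72 and -0.44 under the 14 alternatives tried, leaving out each WSM library in turn included. In NM it was -0.14, with 6 of 24 members whose atg5 libraries all lay below wild type, against 19.0% of all genes. The test of the difference between the media called no gene (0 of 19714 with edgeR, with 2971 at an unadjusted p under 0.05, and 414 with DESeq2).

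The autophagy list had 30 measured members including ATG5, with a median log2 difference of 0.38, 10 members with all atg5 libraries above both wild-type libraries, 0 below and 0 called. APG8A, which encodes an ATG8 protein, had 16.9, 14.1 and 14.1 CPM in the atg5 libraries, against 9.05 and 6.31 CPM (log2 0.97 ± 0.24, edgeR adjusted p = 0.264). ATG8F had 39.6, 41.0 and 49.5 CPM, against 21.6 and 31.6 CPM, and ATG8E had 10.05, 16.4 and 24.4 CPM, against 6.94 and 9.73 CPM. NBR1, a receptor that carries ubiquitinated cargo into autophagic membranes, had 73.1, 56.6 and 77.4 CPM, against 34.2 and 44.7 CPM. Its groups were apart in NM too, where the atg5 libraries had 68.9 and 134 CPM, against 53.3, 48.3 and 45.5 CPM. ATG8E and ATG8F went the other way in NM, with log2 differences of -0.49 and -0.76. The conjugation enzymes APG7 and ATG3 had log2 differences of -0.14 and 0.16 and overlapping groups.

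Of the 23 measured members of the water deficit list, 9 had all atg5 libraries above both wild-type libraries, 2 below and 0 were called, with a median log2 difference of 0.54. Over all genes tested, 13.8% had their atg5 libraries below, so 2 of 23 is not a result about these genes. The 2 were RAB18, given above, and LTI65 (also known as RD29B), which responds to abscisic acid and had 5.32, 2.67 and 2.47 CPM in the atg5 libraries, against 10.3 and 6.09 CPM. RD26, a NAC factor induced by dehydration, had 26.2, 29.7 and 33.6 CPM, against 9.98 and 17.1 CPM (log2 1.14 ± 0.37, edgeR adjusted p = 0.297). KIN2, a cold and dehydration gene, had 138, 17.3 and 44.2 CPM, against 12.96 and 11.9 CPM, with library 1 the highest. LTI78, P5CS1 and HB-7 had differences of -0.11, -0.10 and -0.04. The abscisic acid list, with 26 members, had a median of 0.23, with 6 members above, 0 below and 0 called. NCED3, the enzyme that limits abscisic acid synthesis, had 9.66, 12.7 and 6.68 CPM in the atg5 libraries, against 5.40 and 7.42 CPM.

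Aquaporins, the water channels of the plasma membrane (PIP) and vacuole (TIP), had 24 measured members with a median log2 difference of 0.43, 7 with all atg5 libraries above wild type, 0 below and 0 called. TIP2 (AT3G26520) had 621, 522 and 535 CPM in the atg5 libraries, against 187 and 292 CPM (log2 1.22 ± 0.35, edgeR adjusted p = 0.273). PIP2A had 601, 449 and 602 CPM, against 293 and 370 CPM. The vacuolar channel BETA-TIP of seeds, with 47% of its exonic bases inside another gene, had 5.91, 0.956 and 0.511 CPM, against 2.78 and 3.86 CPM, and overlapped. Photosynthesis genes, the markers of green tissue, had a median of 0.02 over 35 members, with 1 above and 0 below. In NM their median was -0.99 and 0 members were called. There 34 of the 35 had all atg5 libraries below wild type, against 19.0% of all genes.

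**Figure D4:**
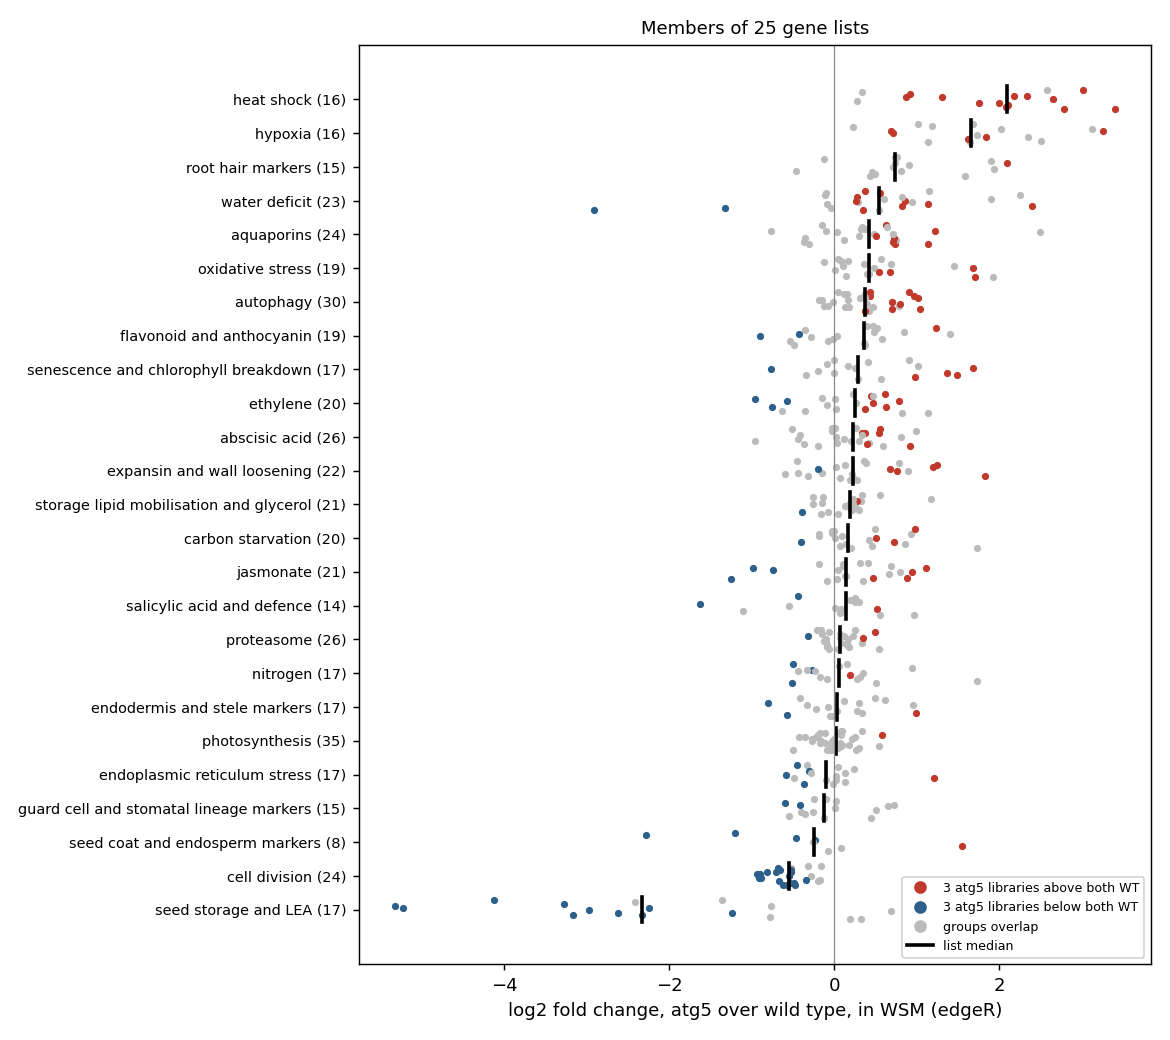
Log2 fold change of atg5 over wild type in WSM for the measured members of 25 gene lists (number of members in brackets), ordered by list median, with a thick bar at the median. Red points have all 3 atg5 libraries above both wild-type libraries, blue points have them below and grey points overlap. The heat shock and hypoxia medians are 2.1 and 1.67, and those of cell division and of seed storage and LEA are -0.54 and -2.33.

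Outside the lists, the genes with the lowest p and separated groups that edgeR did not call included regulators of stress and of the clock. DESeq2 called each gene of this kind with higher values named below, where it called 281 of all 19714 genes higher. ANAC087, a NAC factor, had 23.4, 23.9 and 25.7 CPM in the atg5 libraries, against 10.9 and 8.80 CPM, and a log2 difference of 1.31 ± 0.21 (edgeR adjusted p = 0.106). Its replicates were close in both groups, and in NM, where 18 genes (0.0913%) were called higher, it was among them (21.9 and 18.01 CPM in the atg5 libraries, against 5.64, 5.52 and 6.39 CPM). WRKY25, a stress-related WRKY factor, had 13.8, 18.9 and 27.5 CPM, against 6.79 and 5.42 CPM. RVE1, a clock-related MYB-like factor that neighbours ATG5 on chromosome 5, had 40.6, 16.7 and 33.5 CPM, against 7.41 and 6.64 CPM. PR4, a defence protein that binds chitin, had 43.4, 32.4 and 29.1 CPM, against 9.16 and 11.7 CPM.

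AT5G46780, a VQ motif protein, had 34.1, 24.98 and 29.2 CPM in the atg5 libraries, against 11.1 and 11.3 CPM. The remaining genes of this kind, AT5G40690, AT4G36648, AT3G28200 (a peroxidase) and AT2G19970 (a secreted cysteine-rich protein), had log2 differences of 1.98, 1.14, 1.00 and 1.90. AT1G80440, a kelch repeat protein, differed in direction between the media. It had 36.3, 24.9 and 38.2 CPM in the atg5 WSM libraries, against 6.69 and 10.6 CPM. In NM the atg5 libraries had 8.24 and 9.90 CPM, against 23.7, 35.3 and 43.5 CPM. The test of the difference between the media gave a log2 of 3.85 and did not pass (edgeR adjusted p = 0.0687).

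Of the genes with lower values outside the seed group, AT4G19710 and CARAB-AK-LYS both encode aspartate kinases, the entry to the synthesis of lysine, threonine and methionine. AT4G19710 had 18.1, 21.98 and 24.6 CPM in the atg5 libraries, against 42.7 and 45.6 CPM. CARAB-AK-LYS had 17.1, 19.0 and 19.0 CPM, against 33.7 and 31.7 CPM, with closely placed replicates. PME5, a pectin methylesterase of the cell wall, had 11.03, 17.995 and 16.5 CPM, against 27.2 and 44.1 CPM. Their log2 differences of -1.03, -0.83 and -1.21 shared an edgeR adjusted p of 0.238, and none was called by edgeR. DESeq2 called all of them lower (adjusted p = 0.00818, 0.0120 and 0.0119), where it called 62 of all 19714 genes lower.

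**Figure D5:**
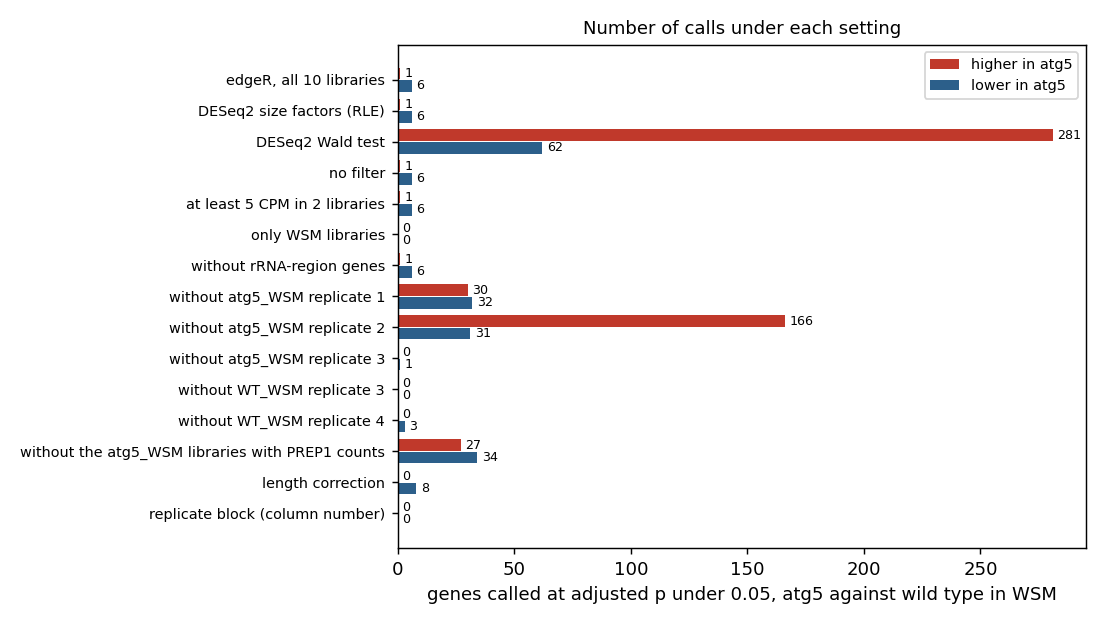
Number of genes called at an adjusted p under 0.05 between atg5 and wild type in WSM under each setting, with genes higher in atg5 in red above genes lower in atg5 in blue. The count with all 10 libraries in edgeR is 1 higher and 6 lower, and the settings range between 0 and 281 higher and between 0 and 62 lower.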

How the data were processed

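The labels' protocols give a stranded mRNA kit and paired-end sequencing of RNA from whole Arabidopsis seedlings. Per the submitters' processing notes, the tools were bcl2fastq, Bowtie2, bedtools and DESeq2 and the genome was TAIR10, with versions not given in the sources used here. Raw counts per gene and library were deposited by the authors in 1 table per genotype. Another 10 columns, of normalized values, were not used. Count columns exist for 10 libraries of the 12 labelled samples. Column numbers and title numbers do not match, so columns were assigned to groups and not to single samples. Genes with low values appear to have been removed before deposit, as the expression filter used here removed 0 genes. The 288 genes listed for wild type alone and 778 for atg5 alone were left out. Overlapping genes may share counts, so the share of exonic overlap is given where it reaches 20%.

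A single edgeR quasi-likelihood model (edgeR 4.0.16 with limma 3.58.1 in R 4.3.3) took the counts of 19714 genes, 4 groups and TMM scaling. It had 6 residual degrees of freedom, and the common biological variation was 28.2%. No gene was removed by filterByExpr. CPM values use TMM-scaled totals, and SE is derived from the quasi-likelihood F statistic. The code was tested on simulated counts. Named genes were the 12 largest rises and 12 largest falls among calls with a mean of at least 5 CPM, separated groups and under 20% exonic overlap, filled up by lowest p among genes not called, plus called list members and ATG5, PREP1, PARC6 and ATG2. OLEO2 and AT3G01570 were named as calls outside the CPM rule. List members beyond that were chosen as examples after their values were seen. The comparison, its 25 gene lists and their members were chosen with earlier results of these data known, so lists are described by counts and medians, without a test. Symbols, positions and promoters come from the RefSeq annotation of TAIR10.1. The promoter window of 1 gene is not reported here. Alternatives were DESeq2 1.42.0, RLE size factors, 2 filters, WSM libraries alone, leaving out rRNA-region genes, each WSM library in turn, or the 2 atg5 libraries with PREP1 counts, and a stricter rule. A length correction and a replicate block on the column numbers were added after seeing the data.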

Additional observations from a re-analysis of the deposited data

How the results depend on the processing

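With 1 gene called higher, 6 lower and 1 list member called in the fit of all 10 libraries, the counts and the named genes did not change their side of the threshold with RLE size factors, no filter, a filter of 5 CPM in 2 libraries, or without rRNA-region genes. DESeq2 called 281 higher and 62 lower, 26 list members, and 414 genes for the difference between media, against 0 with edgeR. Its list members included RAB18, lower, and APG8A, TIP2, ERF71, XTH24, SAG21 and RHL41, higher. With WSM libraries alone the counts were 0 higher, 0 lower and 0 list members. The rule of adjusted p under 0.01 and a log2 of at least 1 left 0 higher and 1 lower. The length correction, chosen after seeing the data, gave 0 higher and 8 lower. With atg5 library 2 as the only atg5 library, the lone library being assumed to vary like the other groups, 27 were higher, 34 lower and 12 list members called. Leaving out each WSM library in turn gave 0 to 166 higher, 0 to 32 lower, 0 to 18 list members and 0 to 53 genes for the difference between media. Leaving out each WSM library in turn moved the log2 difference of ATG2 between -0.17 (without atg5 replicate 2) and 1.15 (without atg5 replicate 3), against 0.78 with all. The cause of these changes was not tested. No called gene changed direction under any alternative, and ATG5 was called under none (edgeR or DESeq2 adjusted p 0.230 to 0.854). A replicate block on the number in each column's name, in the fit of all 10 libraries and chosen after seeing the data, left 3 residual degrees of freedom and gave 0 genes higher, 0 lower and 0 list members called (826 and 468 at an unadjusted p under 0.05). Deviations from the group means correlated above 0.1 in 2 of the 9 pairs of same-numbered libraries of different groups (r from -0.29 to 0.17). Among the 28 pairs with different numbers, 11 did so (r from -0.35 to 0.35). In a group of 2 libraries the deviations mirror each other, so these counts cannot decide whether same-numbered libraries belong together. The numbers do not match the titles, and what a shared number stands for is not known.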

Other observations

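Gene groups outside those described showed the following values in WSM, again as atg5 against wild type. In each, edgeR called 0 members. DESeq2 called 1 member each of the cell wall loosening, oxidative stress, senescence and endoplasmic reticulum stress lists higher. It called 1 member of the flavonoid list lower, and 281 higher and 62 lower of all 19714 genes. Over all genes tested, 13.6% had their atg5 libraries above and 13.8% below, and counts near these shares are no result about a list. The cell wall loosening list had a median log2 difference of 0.22 over 22 members, with 5 above and 1 below. XTH24, a xyloglucan-remodelling enzyme, had 209, 83.5 and 203 CPM in the atg5 libraries, against 48.0 and 44.8 CPM (log2 1.83 ± 0.38, edgeR adjusted p = 0.24). The oxidative stress list had a median of 0.43 over 19 members, with 4 above and 0 below. RHL41, a zinc finger factor of stress responses also known as ZAT12, had 59.9, 29.1 and 43.3 CPM in the atg5 libraries, against 14.8 and 12.6 CPM. AOX1A, the alternative oxidase of mitochondria, had 5.91, 68.9 and 93.7 CPM, against 15.2 and 14.7 CPM, so that library 1 lay below wild type and the others above.

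The senescence list had a median of 0.29 over 17 members, with 4 above and 1 below. SAG21, a LEA-like stress gene, had 1477, 415 and 488 CPM in the atg5 libraries, against 267 and 227 CPM. The jasmonate list had a median of 0.14 over 21 members, with 4 above and 3 below. Its member LOX3, a lipoxygenase of jasmonate synthesis, had 15.6, 32.9 and 16.7 CPM, against 49.6 and 37.2 CPM. The medians of the ethylene (20 members, 6 above, 3 below), salicylic acid and defence (14, 1 and 2), carbon starvation (20, 3 and 1), flavonoid (19, 1 and 2) and nitrogen lists (17, 1 and 3) were 0.25, 0.14, 0.17, 0.36 and 0.06. Those of the storage lipid (21, 1 and 1), endoplasmic reticulum stress (17, 1 and 4) and proteasome lists (26, 2 and 1) were 0.19, -0.10 and 0.08.

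Of the markers of single tissues, the root hair list summed to 866, 96.6 and 48.8 CPM in the atg5 libraries, against 133 and 155 CPM in wild type, with atg5 library 1 the highest and library 3 the lowest. Its median was 0.74 over 15 members, with 1 above and 0 below, and -0.88 to 1.32 across the alternatives. The endodermis and stele list (17 members, 1 above, 2 below) summed to 285, 238 and 260 CPM, against 236 and 280 CPM, with a median of 0.03. The guard cell list (15, 0 and 2) summed to 30.1, 52.0 and 69.6 CPM, against 49.8 and 59.5 CPM, with a median of -0.13.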
